A study of Mus musculus with 12 samples.

Results

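The genes of the mitochondrial ribosomal proteins were examined for the histone mark H3K27ac in newborn mouse hearts. The set took every protein-coding RefSeq gene on chromosomes 1 to 19 whose symbol is Mrpl or Mrps followed by a digit, which gave 78 of 21887 protein-coding genes. Of these, 49 carry an Mrpl symbol and 29 an Mrps symbol, and 6 pseudogenes with such symbols were left out by the rule. By the place of the protein, 51 belong to the large subunit, among them Mrps30 and Mrps18a in spite of their symbols, and 26 to the small subunit. Mrps36 was counted in neither, since its product is now assigned to the 2-oxoglutarate dehydrogenase complex.

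The edKO hearts (n = 3, numbered 1, 3 and 6) came from RXRab-/- mice, in which the retinoid X receptor genes Rxra and Rxrb are deleted in cardiomyocytes only, and the WT hearts (n = 3, numbered 1, 3 and 4) from wild-type newborns. All hearts were taken at postnatal day 0 and each is an individual animal, per the labels. The promoter that drives the deletion is not given in the sources used here. H3K27ac, an acetylated histone found at active promoters and enhancers, had been mapped by ChIP-seq, and each heart has its own list of called regions, of 47971, 48274 and 67706 regions in edKO hearts and 57976, 62882 and 66325 in WT hearts. Read depth per heart is unknown, so a region missing from a list was not called, which is not the same as unmarked.

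Mitochondria keep their own ribosome, which translates the few proteins that mitochondrial DNA encodes, all of them subunits of the respiratory chain and ATP synthase. Its RNA comes from mitochondrial DNA, but every one of its proteins is encoded in the nucleus, made in the cytosol and imported. Some of these proteins descend from bacterial ribosomal proteins and others were added in the course of mitochondrial evolution. The heart, which lives on oxidative metabolism after birth, is among the tissues affected when human ribosomal proteins of the mitochondrion are mutated.

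Promoters of 6 members are shown here because they stand for the sequence types found in the set or for the members with the largest differences between genotypes. Each runs from 250 bases before to 50 bases after the annotated start (RefSeq, GRCm38.p6). Capitals mark matches, on either strand, to an ETS factor motif (CCGGAAG), or to the consensus motifs of nuclear respiratory factor NRF1 and of YY1. Mrpl57, Mrps12, Mrps18a and Mrpl3 were taken by a rule on ETS or NRF1 matches, and Mrps11 and Mrpl1 were chosen after their values were seen. Mrpl57 (chr14:57825989-57826288, plus strand), Mrps12 (chr7:28741772-28742071, minus strand) and Mrpl3 (chr9:105053018-105053317, plus strand) each hold 1 ETS match close to the start.
Mrpl57: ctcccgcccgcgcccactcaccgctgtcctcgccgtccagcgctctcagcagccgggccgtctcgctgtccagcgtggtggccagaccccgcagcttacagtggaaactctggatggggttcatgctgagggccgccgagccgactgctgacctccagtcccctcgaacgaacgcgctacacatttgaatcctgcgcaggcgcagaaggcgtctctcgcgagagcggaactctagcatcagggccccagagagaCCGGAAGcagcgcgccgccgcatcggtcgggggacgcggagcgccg
Mrps12: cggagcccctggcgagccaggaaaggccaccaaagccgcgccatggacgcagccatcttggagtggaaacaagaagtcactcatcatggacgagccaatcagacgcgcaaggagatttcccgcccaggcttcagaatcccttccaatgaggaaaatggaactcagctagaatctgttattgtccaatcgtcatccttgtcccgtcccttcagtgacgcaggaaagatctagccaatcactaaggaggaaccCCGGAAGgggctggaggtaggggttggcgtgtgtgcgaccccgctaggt
Mrpl3: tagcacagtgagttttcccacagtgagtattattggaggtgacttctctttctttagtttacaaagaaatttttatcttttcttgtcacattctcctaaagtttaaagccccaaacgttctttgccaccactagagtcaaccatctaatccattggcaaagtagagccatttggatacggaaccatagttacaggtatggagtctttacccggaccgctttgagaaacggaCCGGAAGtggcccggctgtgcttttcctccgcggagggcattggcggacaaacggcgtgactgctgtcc
Mrps18a (chr17:46110754-46111053, plus strand) holds an ETS and a YY1 match, and Mrps11 (chr7:78782881-78783180, plus strand) a YY1 match in the reverse direction.
Mrps18a: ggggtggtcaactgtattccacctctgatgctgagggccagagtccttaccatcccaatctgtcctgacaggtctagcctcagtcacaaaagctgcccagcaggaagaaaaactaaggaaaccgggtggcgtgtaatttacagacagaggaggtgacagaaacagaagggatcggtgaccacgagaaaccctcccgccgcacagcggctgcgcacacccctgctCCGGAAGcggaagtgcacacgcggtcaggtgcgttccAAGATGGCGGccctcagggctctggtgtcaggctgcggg
Mrps11: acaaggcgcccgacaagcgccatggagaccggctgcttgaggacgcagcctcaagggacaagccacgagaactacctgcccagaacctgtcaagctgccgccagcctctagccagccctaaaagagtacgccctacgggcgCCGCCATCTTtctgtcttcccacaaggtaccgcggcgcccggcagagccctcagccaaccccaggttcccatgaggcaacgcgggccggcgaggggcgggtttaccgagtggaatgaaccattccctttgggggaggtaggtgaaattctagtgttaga
Mrpl1 (chr5:96209865-96210164, plus strand), the member with the largest difference in marked length between genotypes, holds none of the 3.
Mrpl1: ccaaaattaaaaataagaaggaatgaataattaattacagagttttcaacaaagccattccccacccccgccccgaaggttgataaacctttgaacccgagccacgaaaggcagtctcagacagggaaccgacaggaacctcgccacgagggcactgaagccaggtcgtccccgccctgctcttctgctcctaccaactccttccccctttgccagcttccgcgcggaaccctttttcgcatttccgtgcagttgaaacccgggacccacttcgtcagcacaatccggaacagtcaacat

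A promoter was found for 69 of the 78 members, with the first one used where a gene has several. The ETS letters stood in 25 of these 69 promoters (36.2%), against 11.9% of all 17492 promoters of the same length and 19.5% of the 9379 promoters of genes with a called region at the start in every heart. Of the 30 ETS matches, 27 began no more than 100 bases before the start or after it, and their median first base lay 16.5 bases before the start. The YY1 letters stood in 5 member promoters (7.25%), against 2.29% of the promoters of marked genes, and the NRF1 letters in 3 (4.35%), against 2.27%. Mrps27 and Mrps18a hold both ETS and YY1 letters, which did not overlap in either.

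The GC box (GGGCGG) ran the other way, with 34 member promoters (49.3%) against 67.2% of those of marked genes and 46.3% of all. CCAAT stood in 27 (39.1%), against 39.0% of both wider sets, the E-box CACGTG in 5 (7.25%), against 10.2% of marked genes, and TATAAA in 4 (5.80%), against 6.70%. AGGTCA, the core element that RXR and its nuclear receptor partners bind, stood in 11 member promoters (15.9%), against 11.1% of marked genes and 14.5% of all. The median number of CG pairs was 21 in member promoters, 22 in those of marked genes and 13 over all. These counts describe letters in a fixed window of the reference; no test was made and no binding was measured.

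**Figure D1:**
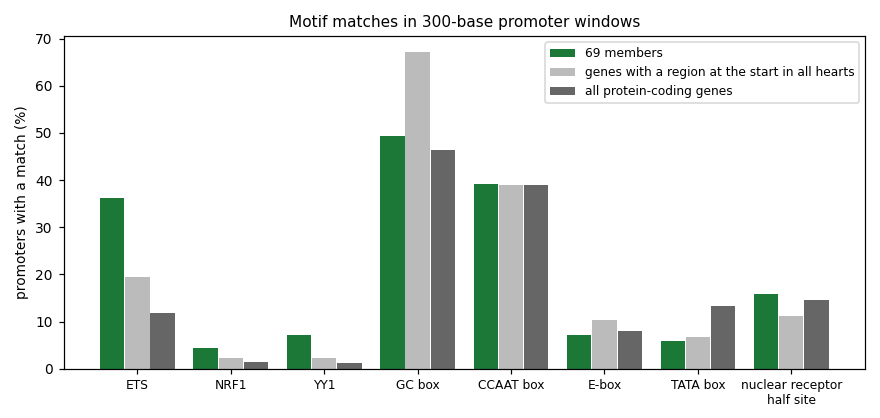
Percent of promoters (vertical axis) with at least 1 match to each of 8 motifs, for the 69 members, for the 9379 genes with a called region at the start in every heart and for all 17492 genes. The ETS bar of the members, at 36.2%, stands above both grey bars, and the GC box bar, at 49.3%, stands below that of marked genes at 67.2%.

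Nearly all members were marked at the promoter side in every heart of both genotypes. A gene-end region, the widest called region within 1 kb of either end of the gene, was found in all 6 hearts for 73 of 78 members (93.6%), against 52% of all protein-coding genes. This is not particular to the members. Related gene lists described below ran from 93.3% for mitochondrial transcription and RNA processing and 95% for mitochondrial aminoacyl-tRNA synthetases to 100% for translation factors and assembly factors. By transcription starts, which the promoter table gives with their strand, all 69 members with an entry had a region within 1 kb in every heart, against 53.6% of genes. The start base itself lay inside a called region in every heart for 67 of the 69, the others being Mrpl20 and Mrpl28, against 45.3% of genes.

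Of the 5 members without a gene-end region in all hearts, Mrps2 and Mrpl22 had none in any heart, Mrpl24 lacked it in WT 4, Mrps23 had it in edKO 6, WT 1 and WT 4, and Mrpl4 in edKO 6 alone. Mrps2 and Mrps23 are proteins of the small subunit, and Mrpl4, Mrpl22 and Mrpl24 of the large subunit, where Mrpl22 and Mrpl24 line or border the exit tunnel. Mrps2, Mrpl22, Mrpl24 and Mrps23 have their annotated starts inside the gene bodies of the gene table, and all 4 had a region within 1 kb of that start in every heart. These 4 were thus marked at the start in both genotypes. Mrpl4 has no entry in the promoter table, and called regions covered 4191, 3497 and 5589 bp around it in edKO hearts, against 4709, 4014 and 3566 bp in WT hearts.

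By their medians, regions at members were narrower than over all marked genes and ranked slightly higher in the lists. Their median width was 1657, 1312 and 1448 bp in edKO 1, 3 and 6, and 1523, 1507 and 1399 bp in WT 1, 3 and 4. Over all genes with such a region it was 1903, 1426 and 1667 bp in edKO hearts and 1704, 1742 and 1523 bp in WT hearts, so that the members' median was the smaller one in each heart. Most related lists described below were narrower still. With widths averaged over hearts, the median was 1503 bp for members, 1341.5 bp for translation factors, 1344 bp for assembly factors, 1408 bp for transcription and RNA processing and 1427 bp for aminoacyl-tRNA synthetases. It was 1848 bp for the ribosomal proteins with other symbols and 1677 bp over all genes. For each gene the highest of the authors' fold enrichments within 1 kb of either gene end was taken, which need not be that of the widest region. Ranked as a percentile among the regions of the same list, it had a member median of 87.0, 88.1 and 92.0 in edKO hearts and 91.4, 91.9 and 91.8 in WT hearts. The medians over all genes with a region were 86.0, 86.2 and 90.4 in edKO hearts and 87.8, 89.3 and 90.1 in WT hearts. With percentiles averaged over hearts, the median was 90.1 for members and 87.2 over all genes. It was 95.2 for the ribosomal proteins with other symbols, 89.6 for aminoacyl-tRNA synthetases and 89.5 for transcription and RNA processing. Translation factors had 88.4 and assembly factors 84.2, so the higher rank is not particular to the members. These ranks hold within a list and are not compared between genotypes. The region that gave the width held the annotated start in every heart for 54 of the 65 members where both are known, in some hearts for 8, and in none for Mrpl2, Mrpl52 and Mrpl58.

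Among members, Mrps7 (mean percentile 98.9), Mrps18b (98.5) and Mrpl48 (98.1) had the highest-ranked regions near a gene end. Mrps23 (34.8, over the hearts that had one), Mrps18c (66.0) and Mrpl16 (72.3) had the lowest. Mrps7 belongs to the head of the small subunit and Mrpl16 to the large subunit. The Mrps23 value is that of a weak region at the table's gene end and not of its start.

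**Figure D2:**
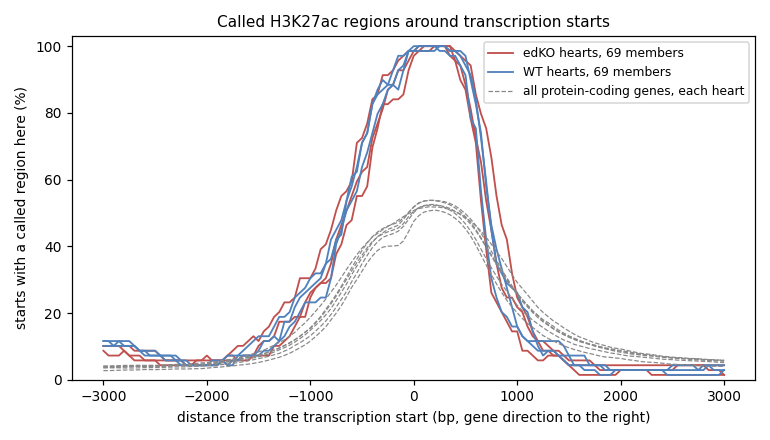
Percent of transcription starts (vertical axis) with a called region at each distance from the start in bp (horizontal axis, gene direction to the right), with 1 line for each edKO and WT heart over 69 members and dashed lines for all genes. The lines of the members reach the top of the axis around the start in both genotypes, where those of all genes stay near 50%, and they fall away within about 1 kb on either side.

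A large share of the members starts opposite another gene. In 25 of the 69 (36.2%) the nearest start on the other strand pointed away at a distance of at most 1000 bp, allowing an overlap of up to 300 bp, against 9.06% of all genes. The share was not counted over marked genes alone or over related gene lists, so it is not known to be particular to the members. Several partners also serve mitochondria. Mrps12, a protein of the decoding centre of the small subunit, starts 147 bp from Sars2, the mitochondrial seryl-tRNA synthetase, and Mrpl43 starts 116 bp from Twnk, the helicase that replicates mitochondrial DNA. Mrpl47 lies 308 bp from Ndufb5, a subunit of respiratory complex I, and Mrps27 lies 108 bp from Ptcd2, a mitochondrial RNA-processing protein.

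Other partners work elsewhere, such as Psma2 of the proteasome at Mrpl32, the chaperonin gene Tcp1 at Mrpl18, and Fau, which encodes a cytosolic ribosomal protein, at Mrpl49. Mrpl46 and Mrps11, of the large and the small subunit, start 42 bp apart and are the only 2 members with another member in their window. They share 1 called region, of 1573, 1182 and 1127 bp in edKO hearts and 1165 and 1375 bp in WT 1 and WT 3. In WT 4 the widest region near an end was 1248 bp for Mrpl46 and 1767 bp for Mrps11, which lies at the far end of the gene. The 2 genes are therefore not independent measurements.

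The region around the start was lopsided according to the partner. In members with a head-to-head partner it reached a median of 963 bp upstream and 716 bp downstream, and it was longer downstream in 7 of 25. In members without one it reached 477 bp upstream and 713 bp downstream, and it was longer downstream in 32 of the 42 whose start was covered. Over all genes the medians were 694 and 968 bp, and 73.1% were longer downstream. The upstream medians of the members with a partner were 1137, 907 and 871 bp in edKO hearts and 914, 1073 and 901 bp in WT hearts. Those without one stood at 579.5, 409 and 438.5 bp in edKO hearts and at 523, 522 and 508.5 bp in WT hearts. In each of the 6 hearts the median was higher with a partner than without one. Single members of the 2 kinds overlapped: Mrps5, with a partner, reached 539 bp upstream on average over hearts, and Mrps21, without one, reached 1086 bp.

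To compare genotypes, the base pairs under called regions were summed in each heart over a window that ran from 10 kb before to 10 kb after the gene. The median member had 2312.5, 1899 and 2104.5 bp in edKO 1, 3 and 6, against 2337.5, 2446 and 2341 bp in WT 1, 3 and 4. Each edKO median was below each WT median in bp. Over all genes the medians were 1758, 1324 and 1640 bp in edKO hearts, against 1675, 1757 and 1497 bp in WT hearts, and overlapped. Once values were centred per heart the members' medians overlapped too, with 11.18, 11.32 and 11.13 in edKO hearts, against 11.24, 11.25 and 11.37 in WT hearts on the log2 scale. The window held a median of 2 called regions in every heart, and 32 to 36 members had only 1. Between 55.7% and 58.5% of the covered length lay in the members' own gene-end regions, 15.3% to 18.05% at the ends of other genes and 24.7% to 27.4% at no gene end. For 66 of 78 members the window also holds part of another protein-coding gene, so the length is not that of the member alone.

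The targeted genes were measured in the same way. The Rxra locus had 15107, 8682 and 18432 bp in edKO hearts, against 11157, 15540 and 18868 bp in WT hearts, and the Rxrb locus 5250, 4246 and 5226 bp, against 5138, 5143 and 5323 bp. Marked length over a whole locus does not check a deletion inside it, and in whole hearts other cell types keep both genes. Fewer marked cells and less mark per cell cannot be told apart in these samples. All 10 cardiomyocyte markers, all 7 fibroblast and all 7 endothelial markers had a gene-end region in every heart, as did 4 of 5 of smooth muscle and pericytes, against 1 of 5 leukocyte, 1 of 5 liver, 0 of 5 erythroid and 0 of 4 neural markers.

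No mitochondrial ribosomal protein gene passed the test between genotypes. All 78 reached the mean of 500 bp needed for testing, as did 65.4% of all genes. With limma on log2(covered bp + 200), centred per heart, and Benjamini-Hochberg adjustment over all 14317 loci, 0 of 78 were called lower and 0 higher. Of all loci tested, 0.105% were called lower and 0% higher, so that a count of 0 among 78 is near the background. The smallest adjusted p of a member was 0.342, at Mrpl1. Without adjustment, 2 members had a p under 0.05, which is 2.56% of members against 6.61% of all loci. Mrpl1 had the lower estimate in edKO hearts (1.28% of members, against 4.62% of loci) and Mrps5 the higher one (1.28%, against 1.98%).

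The intervals show which changes in covered length the data leave room for. They do not bear on the height of the signal, which was not compared between genotypes. The 95% interval of the difference lay between -1 and 1 on the log2 scale for all 78 members, against 91% of loci, and between -0.5 and 0.5 for 59 members, or 75.6%, against 59.9% of loci. The lowest bound was -0.99 at Mrpl1 and the highest 0.69 at Mrps11. Mrpl17 and Mrpl28 also had wide intervals: Mrpl17 had 7079, 2708 and 2676 bp in edKO hearts, against 5262, 4750 and 3489 bp in WT hearts, with edKO 1 far above the other two. A difference beyond -1 or 1 on this scale is thus outside the interval of each member, each interval taken alone.

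The differences of the members lay closer together than those of other loci. Their SD was 0.13 on the log2 scale, against 0.29 over all loci tested, and 90% of them lay between -0.18 and 0.21, against -0.46 and 0.29. The median difference was 0.07 over members and 0.03 over all loci. The estimate was below 0 for 20 of 78 members, or 25.6%, against 41.5% of loci. Without centring, the member median was -0.01 and that of all loci -0.05, so the sign of so small a median depends on the scaling. It depends on the summary too. The centred per-heart member medians of edKO 1 and edKO 6, 11.18 and 11.13, lay below all WT medians, and that of edKO 3, 11.32, below that of WT 4 alone, 11.37.

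**Figure D3:**
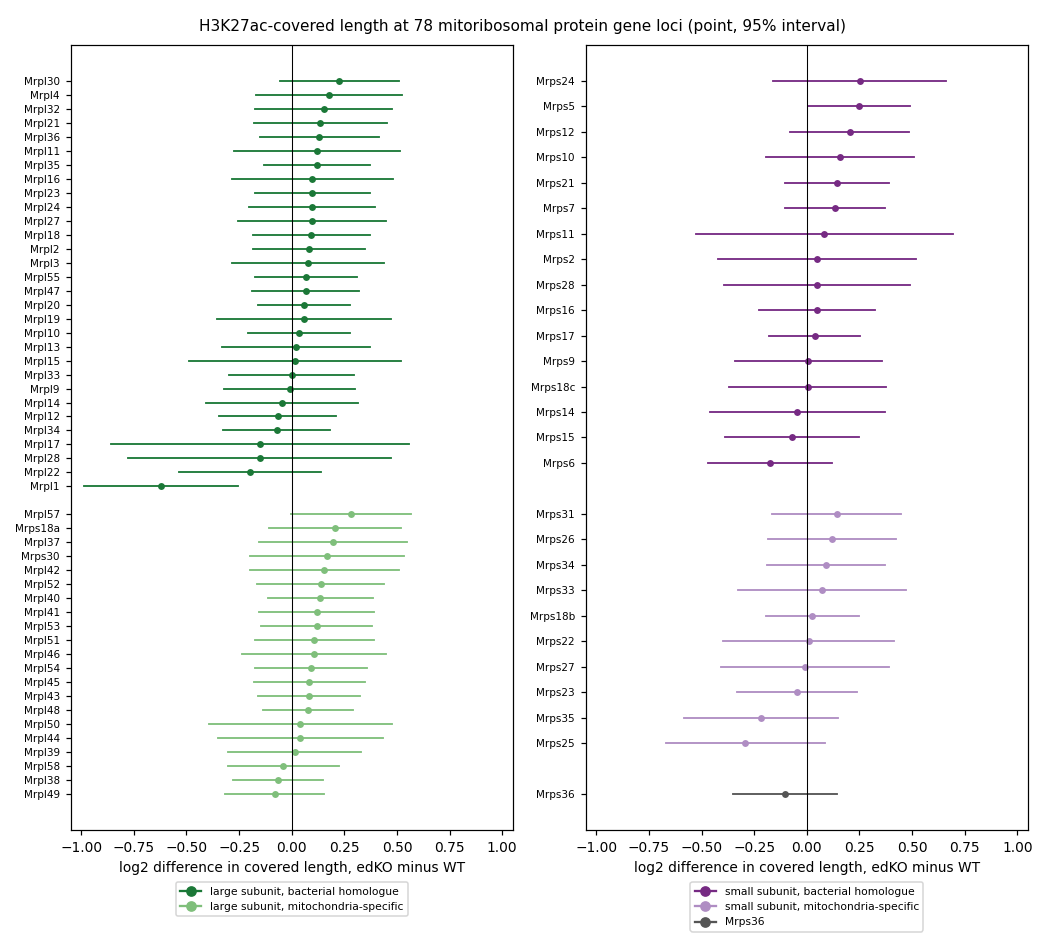
Difference in covered length between edKO and WT hearts (horizontal axis, log2, edKO minus WT) for each of the 78 members, by subunit and origin, with its 95% interval (n = 3 hearts per genotype). All 78 intervals lie between -1 and 1, and Mrpl1, at -0.62, stands apart on the left.

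No group of members by role held a call, and their medians lay close to one another. The 30 large-subunit proteins with a bacterial homologue had a median difference of 0.07, with 9 below 0, and the 21 large-subunit proteins specific to mitochondria had 0.11, with 3 below 0. The 16 small-subunit proteins with a bacterial homologue had 0.05, with 3 below 0, and the 10 specific to mitochondria had 0.02, with 4 below 0. Members with a head-to-head partner had a median of 0.09 and those without one 0.05.

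On the centred scale the hearts of the 2 genotypes did not overlap at 7 members, or 8.97%, against 12.9% of all loci. Mrpl1 and Mrpl38 were lower in every edKO heart (2.56% of members, against 5.78% of loci), and Mrpl30, Mrps5, Mrps12, Mrps21 and Mrpl57 higher (6.41%, against 7.12%). The direction at Mrps12 turned, to -1.01, when regions were assigned to the nearest gene only. Mrps12 and Sars2, which start 147 bp apart, had the same covered length in every heart. That setting gives a region to a single gene, so its value at Mrps12 is not one of marking alone. Both shares are below the background, so the separation of these 7 members is not more frequent than at other loci.

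Mrpl1, which forms the stalk through which used transfer RNA leaves the ribosome, had the lowest estimate. Called regions covered 1714, 1226 and 1453 bp in edKO hearts, against 2658, 2086 and 2795 bp in WT hearts, so that the groups did not overlap. The means were 1464 ± 244 bp in edKO hearts and 2513 ± 376 bp in WT hearts (SD, n = 3 each), and the log2 difference was -0.62 (SE 0.16, limma adjusted p = 0.342). The gene (chr5:96209498-96266727, mm10) has no other protein-coding gene in its window.

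The difference at Mrpl1 lies mostly in weak called regions away from its promoter. The region over the start was 1308, 1226 and 1221 bp wide in edKO hearts, against 1427, 1295 and 1356 bp in WT hearts, a log2 difference of -0.10 (SE 0.14) that did not pass the test. Upstream of it, WT 1 had a region from -3484 to -2254 bp relative to the start, WT 3 had 2 regions between -3244 and -2236 bp, and WT 4 had one from -3637 to -2425 bp. In edKO hearts, edKO 6 had a region of 232 bp there, from -2471 to -2240 bp, and edKO 1 and edKO 3 had none, while edKO 1 had a region of 406 bp nearer the start. WT 4 also had one of 226 bp inside the gene. All of these upstream regions are weak, with a fold enrichment by the authors of 3.55 and 4.06 in edKO hearts and of 2.84 to 4.14 in WT hearts, against 17.3 to 21.6 in edKO hearts and 13.3 to 26.6 in WT hearts over the start. The lists of edKO 1 and edKO 3 are the shortest, with 47971 and 48274 regions, and that of edKO 6 is the longest, with 67706. Those of the WT hearts hold 57976 to 66325. Whether list length bears on these weak calls was not tested. With the gene body alone the log2 difference was -0.08.

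Mrps25, a small-subunit protein specific to mitochondria (chr6:92169512-92184023), had 1063, 827 and 1497 bp in edKO hearts, against 1674, 1507 and 1311 bp in WT hearts. It consists of a single region over the start, the groups overlap through edKO 6 and WT 4, and the log2 difference of -0.29 (SE 0.16, limma adjusted p = 0.831) did not pass. Its width difference was -0.42 (SE 0.19), the lowest among members. Mrps35, of the small subunit, and Mrpl22 had estimates of -0.22 and -0.20. Mrpl22 had 2231, 1993 and 1703 bp in edKO hearts, against 2481, 2517 and 2314 bp in WT hearts. All edKO hearts were lower there in bp, but the groups overlapped once values were centred.

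**Figure D4:**
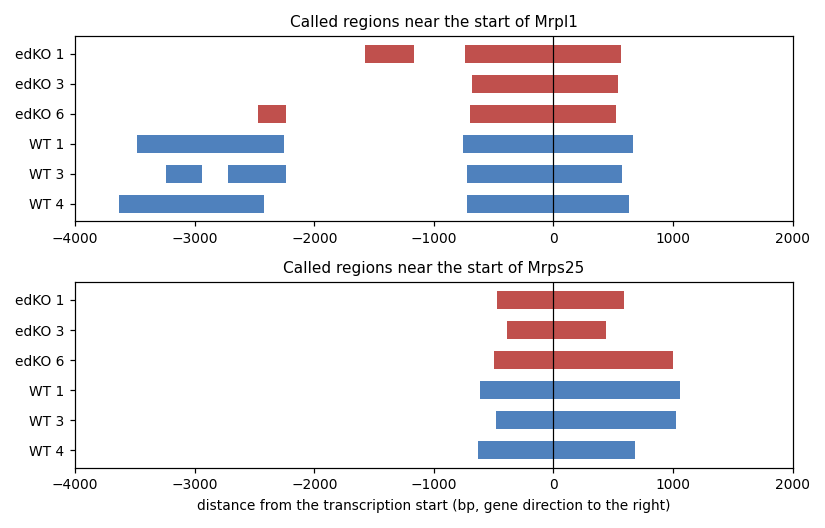
Called regions of each heart around the starts of Mrpl1 (top) and Mrps25 (bottom), by distance from the start in bp, with the 3 edKO hearts above the 3 WT hearts. At Mrpl1 the regions over the start have similar ends in all 6 hearts and WT 1 and WT 4 have upstream regions of 1231 and 1213 bp, longer than any upstream region of an edKO heart. At Mrps25 each heart has 1 region, shortest in edKO 3.

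At the upper end, Mrpl57 of the large subunit (chr14:57826228-57829087) had 2126, 1312 and 1836 bp in edKO hearts, against 1701, 1538 and 1247 bp in WT hearts. In bp the groups overlap through edKO 3, and on the centred scale they did not, with a log2 difference of 0.28 (SE 0.12, limma adjusted p = 0.753). Mrps5, a protein at the entry of the messenger RNA channel (chr2:127587426-127603986), had 2147, 1594 and 2050 bp in edKO hearts, against 1860, 1779 and 1464 bp in WT hearts. Its log2 difference was 0.25 (SE 0.10, limma adjusted p = 0.745), and again only the centred values were separate. The estimate at Mrps24, also 0.25, was slightly the higher of the pair, and Mrpl30 (0.23), Mrps18a (0.21) and Mrps12 (0.20) came after them.

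Mrpl3, Mrpl44 and Mrps22 are described because mutations of their human counterparts are known in mitochondrial disease with cardiomyopathy. Mrpl3 lies near the catalytic centre of the large subunit, Mrpl44 is a mitochondria-specific protein with a ribonuclease-like fold, and Mrps22 is specific to the mitochondrial small subunit. Mrpl3 had 1422, 968 and 1052 bp in edKO hearts, against 1068, 1432 and 963 bp in WT hearts. Mrpl44 had 1105, 913 and 940 bp in edKO hearts, against 1072, 924 and 1074 bp in WT hearts. Mrps22 had 1048, 824 and 933 bp in edKO hearts, against 960, 915 and 1116 bp in WT hearts. The groups overlap in all 3, and in each the whole length is the single region over the gene's end. The log2 differences were 0.08 (95% interval -0.28 to 0.44), 0.04 (-0.35 to 0.43) and 0.01 (-0.40 to 0.41) in that order.

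**Figure D5:**
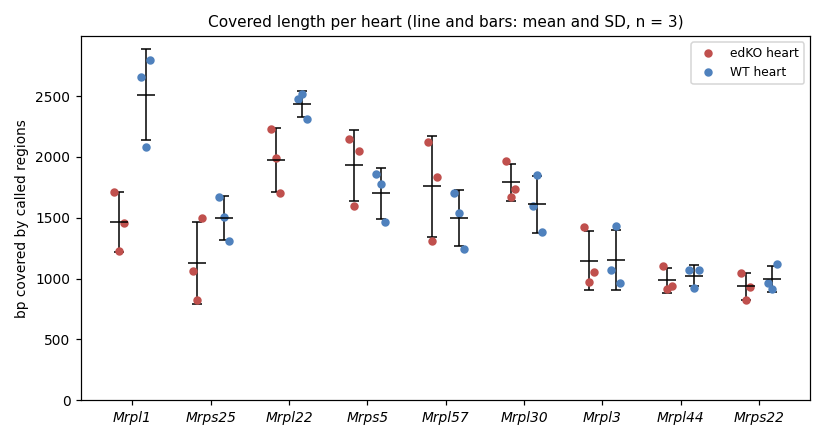
Length covered by called regions (vertical axis, bp) in each edKO and WT heart at 9 members, with mean and SD (n = 3 each). In bp the groups are apart at Mrpl1 and Mrpl22 and overlap at the other 7. On the centred scale of the test they are apart at Mrpl1, Mrps5, Mrpl57 and Mrpl30 and overlap at Mrpl22. Of all loci tested, 12.9% did not overlap on the centred scale, and no such share was taken in bp.

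The amount of marked length differed far more among members than between genotypes. Mrpl23 and Mrps23 had the most, with a mean over all hearts of 11733 and 11702 bp, and Mrpl48 followed with 8326 bp. Mrpl23, at the mouth of the exit tunnel, had 12783, 9025 and 13763 bp in edKO hearts, against 10503, 12698 and 11628 bp in WT hearts, and no other protein-coding gene lies in its window. The groups overlap there, as at Mrps23, with 11921, 10550 and 11027 bp in edKO hearts and 12172, 11665 and 12879 bp in WT hearts. Mrps2, Mrpl19 and Mrpl28 had the least, with means of 774, 839 and 847 bp. Covered length grows with the length of the gene and with its neighbours, so this order is not one of marking per base.

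The width of the gene-end regions gave the same count. Of 73 members tested, 0 were called lower and 0 higher, against 0.0351% and 0% of 11383 genes, and the median log2 difference was 0.00 over members and 0.02 over all. The estimate was below 0 for 36 members, or 49.3%, against 44.3% of genes, and the 95% interval lay between -1 and 1 for all 73, against 87.2%, and between -0.5 and 0.5 for 52, or 71.2%, against 55.6%. Mrpl58, a peptidyl-tRNA hydrolase built into the large subunit, had 2805, 1992 and 2281 bp in edKO hearts, against 1992, 2153 and 1796 bp in WT hearts. In bp the groups overlap through edKO 3. This region lies at the far end of the gene, 7863 to 8479 bp from its start, in a window that also holds Cdr2l, Atp5h and Kctd2. It was the only member with an unadjusted p under 0.05 (log2 difference 0.26, SE 0.09, limma adjusted p = 0.99995), or 1.37% of members against 3.92% of genes in either direction and 1.56% higher. None was lower at that level, against 2.35% of genes. Mrps5 and Mrpl58 were the 2 members with centred widths higher in every edKO heart (2.74%, against 5.12% of genes), and none had widths lower in every one (against 3.88%).

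Regions restricted to a genotype, called in its 3 hearts and in no heart of the other, were rare at members and over all genes alike. The lists joined to 79241 regions, of which 56 were restricted to edKO and 853 to WT hearts. One member window held an edKO-restricted region, that of Mrps18a (chr17:46130130-46130597), which lies inside the neighbouring gene Rsph9, 1222 bp beyond the end of Mrps18a. It is 1.28% of members, against 0.201% of all genes. One held a WT-restricted region, that of Mrpl22 (chr11:58183857-58184315), which lies in Gm12250, 4277 bp away, or 1.28% against 3.03% of all genes. Neither region lies in a mitochondrial ribosomal protein gene, and 1 window of each kind is too few to read as excess or scarcity.

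The wider machinery of mitochondrial translation held no call either. The 5 ribosomal proteins with other symbols (Dap3, Ptcd3, Chchd1, Aurkaip1 and Gadd45gip1) had a median log2 difference of 0.00, the 11 translation factors 0.11, the 26 assembly and ribosomal RNA modification factors 0.13, and the 20 mitochondrial aminoacyl-tRNA synthetases 0.03. In each, 0 were called in either direction, against 0.105% of all loci tested, so that 0 in lists of this size is near the background. The range ran from -0.39 at Dhx30, an RNA helicase of ribosome assembly, to 0.40 at Eral1, a chaperone of the small-subunit RNA, within the assembly factors.

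Of 15 genes of mitochondrial transcription and RNA processing, 14 were tested, with a median of 0.08 and no call, against 0.105% of all loci. Polrmt, the mitochondrial RNA polymerase that makes the ribosomal RNA, had the lowest estimate, with 864, 488 and 729 bp in edKO hearts, against 1155, 1370 and 1577 bp in WT hearts. Each edKO heart was below each WT heart in bp, a scale on which no share over all loci was taken. On the centred scale, for which the values of Polrmt are not given here, all edKO hearts were lower at 5.78% of loci. The log2 difference of -0.74 (SE 0.19, limma adjusted p = 0.339) did not pass the test. Prorp, the catalytic subunit of mitochondrial ribonuclease P, had the highest, with 10654, 5085 and 8191 bp in edKO hearts, against 7162, 6610 and 4005 bp in WT hearts. The groups overlap there, and the log2 difference of 0.48 (SE 0.22, limma adjusted p = 0.765) did not pass the test either. Tfam, which packages mitochondrial DNA and starts its transcription, had 1725, 1286 and 1288 bp in edKO hearts, against 1246, 1401 and 1244 bp in WT hearts, with overlap.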

How the data were processed

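H3K27ac ChIP-seq lists of 6 hearts were used, and the 6 input samples were not analysed here. Per the submitters' processing notes, the tools were cutadapt, BWA, SAMtools and MACS2 (no versions stated) and the builds mm10 and GRCm38. Neither the MACS2 settings nor the use of inputs as controls is stated in the labels or lists. The authors deposited 1 narrowPeak list per heart, called on each heart alone, with mm10 coordinates. Its deposited signal column is a fold enrichment, which is a ratio to background. The significance of a peak is deposited as −log10 of its p-value and of its q-value, and the deposited score column, which was not used, is derived from the latter. Fold and −log10 values served only to rank or filter within a list. Entries of one region were merged.

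Gene positions and promoters came from RefSeq tables of GRCm38.p6, and all 154 genes of the lists matched by symbol. Loci with a mean covered length under 500 bp were left out, and values were centred per heart on loci covered in all hearts. limma 3.58.1 (R 4.3.3, trend and robust) was run with genotype as the only term and adjustment over all loci or genes at 0.05. No p was computed over the members alone. In simulated data for covered length at 14317 loci, 50 loci were given each of the log2 changes -2, -1, 1 and 2. Of these, 86%, 70%, 74% and 92% were called in that order, with 14 false calls in the whole run. Far fewer loci were called in the real hearts, so these shares need not carry over. Fold changes with 200 bp added understate changes at loci with little covered length.

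Python 3.11.15, numpy 2.4.6, pandas 2.3.3 and matplotlib 3.10.9 were used. Named members are the lowest and highest differences, the smallest unadjusted p-values, the most and least covered, the highest and lowest fold percentiles, those lacking a gene-end region in some heart, those near restricted regions, and Mrpl3, Mrpl44 and Mrps22. Others were named after their values were seen. The members and lists were chosen with earlier results of these data known. Alternatives changed the window, pseudocount, filter, centring, lists and hearts.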

Additional observations from a re-analysis of the deposited data

How the results depend on the processing

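No member was called under any of the 18 alternatives for covered length or the 15 for gene-end width, and the smallest adjusted p of a member was 0.254 for covered length and 0.0989 for width. The number of loci called over the whole table, 15 for covered length, was 9 with regions assigned to the nearest gene only, 9 with stricter lists, 6 with equal list length and 0 to 9 with 1 heart left out, with 0 without WT 3. For width it was 4, and 2 with summed width, 2 without centring and 0 to 5 with 1 heart left out, with 0 without edKO 6 or WT 3. The median fold percentile of members, 90.4 as a mean over hearts, was 92.3 among entries and 85.8 in stricter lists. The number of members with a gene-end region in all hearts, 73, was 67 with a region touching the end, 76 within 2 kb and 73 in stricter lists.

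The hearts share only the numbers 1 and 3. Deviations of same-numbered hearts correlated at 0.18 and 0.03, against -0.24 to 0.14 for hearts with different numbers, and the numbers were not taken as pairs. A replicate block leaves WT 4 and edKO 6 each alone under its number, so its estimates rest on hearts 1 and 3. With a replicate block, 90 loci were called for covered length and 45 for width, none of them a member, and the member medians were 0.12 and 0.05. The estimate at Mrpl28, -0.15, was 0.12 with the block and ran from -0.34 to 0.0518 with 1 heart left out, turning positive without WT 4. Mrpl14, 0.26 in width, was 0.75 with the block (limma adjusted p = 0.0989).

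Of 309 alternatives for the 19 estimates of single genes, 303 kept their direction and 6 reversed. Besides the pair at Mrpl28, Mrps6 (-0.18) was 0.0155 with the gene body alone, Mrps12 (0.20) was -1.01 with regions assigned to the nearest gene only, and the width difference of Mrpl54 (0.27) was -0.20 with summed widths and ran from -0.0307, without edKO 1, to 0.46 with 1 heart left out; the cause was not tested. Read depth per heart is unknown, which limits what a missing region can show.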
